A study of Xenopus laevis with 15 samples.

Results

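The genes described here are the innate immune and inflammatory signalling genes of Xenobots. They were taken by name from the table of counts per gene: Toll-like receptors (tlr), interferon regulatory factors (irf), STAT proteins, SOCS proteins, the nfkb and rel genes, TRAF adaptors, the tnfaip and tnfrsf genes, myd88, the irak genes, il1b, and the cxcl, cxcr and ccr genes. The rule found 137 rows among the 42638 rows of the table, and all 137 names matched the RefSeq gene table. Because it works on the start of a name, it also takes irf2bp2 and irf2bpl, irak1bp1 and nfkbil1, which are not members of the families whose names they begin with. Xenopus laevis is an allotetraploid frog with a long and a short subgenome, and the endings .L and .S name the copies (homeologs) of a gene.

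Xenobots are small motile bodies grown from the animal cap, the ectoderm of the early frog embryo. Wild-type caps were cut at the blastula stage and kept for 7 days at 14 degrees C in a frog saline. Each of the 15 libraries came from a pool of 50 Xenobots, in 5 groups of 3. Ctrl was taken before any stimulus. Ext_0h and Ext_4h were taken immediately and 4 h after addition of an extract of homogenised blastulae, made from 3 embryos and given at 10 µL per 14 mL. ATP_0h and ATP_4h were taken immediately and 4 h after addition of 250 µM ATP in 4 mL. Between extract and ATP groups, the stimulus therefore cannot be told apart from the volume of medium. No mock-stimulated group is among these samples, so a stimulus and its handling cannot be told apart from each other, nor time after the stimulus from age. Since the labels name pools and not clutches, p-values measure the spread between these pools.

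Toll-like receptors bind microbial molecules, and the TNF receptor family binds cytokines of the TNF family. Both signal to NF-kB through adaptors and kinases, with MyD88 and IRAK on the side of the Toll-like receptors and TRAF on both. NF-kB is held in the cytoplasm by inhibitors and, once freed, turns on cytokines, chemokines and its own inhibitors. Interferons and many other cytokines signal through JAK kinases and STAT transcription factors, which SOCS proteins switch off, while IRF factors drive interferon genes. Epithelia such as the skin of the tadpole carry much of this machinery themselves, and extracellular ATP and material from broken cells are known as danger signals in mammals.

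The libraries held 12583039 to 20325075 counts, of which ribosomal RNA genes took 20.1% to 43.3%. The members together held 1578 to 1793 CPM (counts scaled to a common library size, with edgeR's TMM factors). The labelled cell type is epidermal, and epidermal markers such as keratins and cdh1 summed to 5834 to 8358 CPM and goblet cell markers to 3629 to 5797 CPM. The list for blood and myeloid cells had 6 of its 25 rows above the low-count filter and summed to 13.4 to 23.4 CPM, of which runx1.L made up 10.3 to 18.5. Among leukocyte markers, ptprc.L, cd53, tyrobp, spi1 and lcp1.L were at or near 0 in all libraries. Not every row of the list is named here, and those left out include rows above the filter. These values do not show that leukocytes were absent. Muscle markers, which ectoderm should lack, varied most: their sum ran from 6.03 to 173 CPM, and it was 77.9 to 173 CPM in ATP_4h. In bulk RNA, fewer cells of a type and less RNA per cell cannot be told apart.

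Of the 137 members, 109 passed the filter on low counts and were tested, 28 did not, and 7 of those 28 were at 0 in all 15 libraries. The signalling machinery was present throughout: all 6 myd88 and irak rows, all 11 traf rows, all 16 socs rows, 14 of 15 nfkb and rel rows, 18 of 20 irf rows, 9 of 10 stat rows and 13 of 15 tnfrsf rows were tested. Chemokine receptors were mostly below the filter, with 1 of 8 cxcr rows (cxcr4.S) and 1 of 5 ccr rows (ccr9.L) tested. Toll-like receptors had 3 of 6 rows tested and cxcl chemokines 7 of 13. The members at 0 throughout were ccr3.L, cxcl9.S, cxcl10.S, cxcl11.S, cxcl13.S, cxcr5.S and tlr12.L. Those cxcl rows are copies of genes for chemokines that in mammals attract lymphocytes. The partner rows cxcl10.L and cxcl13.L were below the filter but not at 0 throughout, with counts of up to 1 and 8 per library. A count of 0 limits the summed RNA of a pool at this depth and does not show that no cell used the gene.

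**Figure D1:**
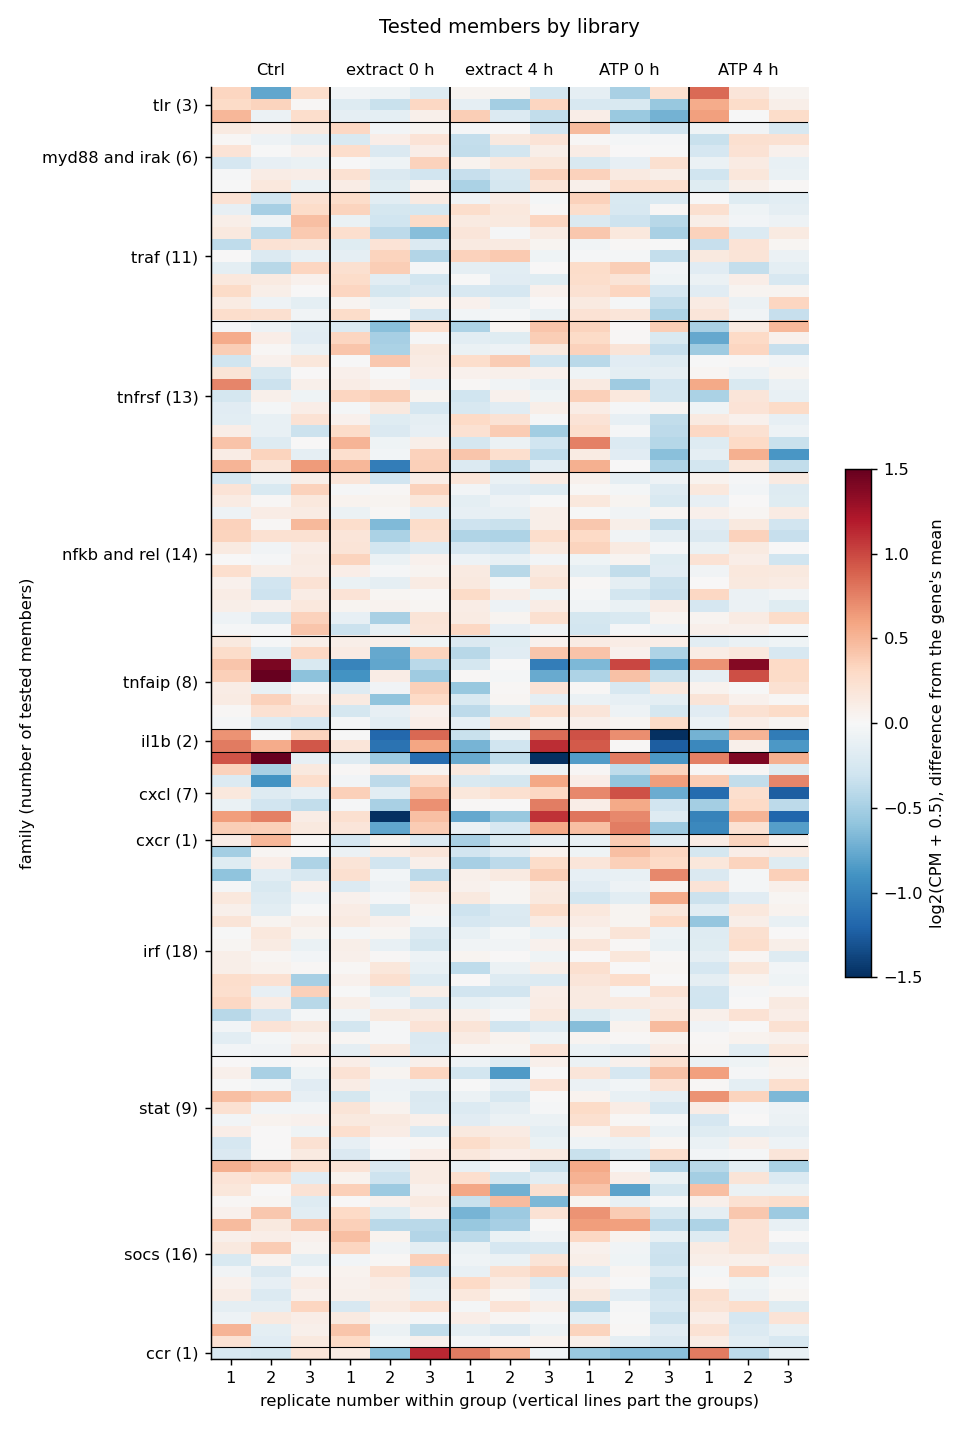
Levels of the tested members by library. Each row is 1 of 109 members grouped by family, each column 1 of 15 libraries grouped by condition, and the colour is the log2 CPM (with a small constant added) minus the gene's mean over all libraries, with values beyond the ends of the scale drawn at the ends. The irf and stat rows are mostly pale, while il1b and several cxcl and tnfaip rows hold dark red and dark blue cells within the same group.

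The first question was whether either stimulus was followed by a change in these genes. No member was called in any of 11 comparisons by edgeR's quasi-likelihood test at an adjusted p-value under 0.05, corrected over all 24052 genes tested. For Ext_0h against Ctrl, 0 members were called where 0% of all genes were, and 4 of 109 (3.67%) had an unadjusted p under 0.05 where 4.53% of all genes did. At Ext_4h the count was again 0 beside a background of 0%, with 6 members (5.5%) at an unadjusted p under 0.05 against 7.27% of all genes. ATP_0h gave 0 members beside 0%, with 5 (4.59%) against 3.58% unadjusted. ATP_4h gave 0 members beside 0.00416% of all genes, with 3 (2.75%) against 3.29% unadjusted. DESeq2 and limma-voom also called 0 members in each of these comparisons. With all libraries the members' share at an unadjusted p under 0.05 was below that of all genes in 3 of these comparisons and above it at ATP_0h.

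These unadjusted counts moved with single libraries, and so did the share of all genes. At Ext_4h there were 16 members (14.5%, against 14.3% of all genes) without Ext_4h replicate 3, 1 (0.901% against 3.81%) without Ext_4h replicate 1 and 2 (1.8% against 4.67%) without Ctrl replicate 1. At Ext_0h there were 0 members (against 1.96% of all genes) without Ctrl replicate 2. ATP_0h had 8 (7.27% against 4.35%) without ATP_0h replicate 1, 2 (1.82% against 2.78%) without ATP_0h replicate 3, and 3 without Ctrl replicate 1 (2.7% against 3.08%) or Ext_0h replicate 2 (2.73% against 3.11%). ATP_4h had 10 (9.26% against 5.13%) without ATP_4h replicate 2 and 5 (4.55% against 2.99%) without Ext_0h replicate 2. The members' share thus lay above that of all genes in some of these fits and below it in others.

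The change over time gave the same picture. Between 0 h and 4 h, 0 members were called after extract (0% of all genes) and 0 after ATP (0.0125% of all genes). Averaged over both stimuli, 0 members were called beside 0.0582% of all genes. At an unadjusted p under 0.05 there were 1, 6 and 6 members in these tests (0.917%, 5.5% and 5.5%), against 2.37%, 8.84% and 9.75% of all genes. DESeq2 and limma-voom called 0 members in each of them. Extract against ATP called 0 members at 0 h (0% of all genes) and 0 at 4 h (0%), with 2 and 4 members at an unadjusted p under 0.05 (1.83% and 3.67%) against 5.2% and 4.28%. The interaction of stimulus and time called 0 members (0% of all genes) with 1 member unadjusted (0.917% against 1.37%), and both other tools called 0 members in these 3 tests. In the test of any difference among the 5 groups edgeR called 0 members beside 0.0208% of all genes, with 3 (2.75%) against 6.48% unadjusted. There limma-voom called 0 and DESeq2 called 1, cxcl12.L. The share of all genes that DESeq2 called is not given here, so this call cannot be set against it.

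The estimates were narrow enough to bound most members. In Ext_0h, Ext_4h, ATP_0h and ATP_4h against Ctrl, 84, 82, 85 and 82 of the 109 members had an approximate 95% interval that lay wholly within a 2-fold change either way (77.1%, 75.2%, 78% and 75.2%, against 74.6%, 72.9%, 74.7% and 75.9% of all genes). Members not bounded in this way included il1b.L, il1b.S and cxcl8.L. At Ext_0h their intervals on the log2 scale ran from -2.29 to 1.55, -2.21 to 0.58 and -2.10 to 0.81. The median member differed from Ctrl by -0.03, -0.06, -0.02 and -0.05 on the log2 scale, and the median of all genes by 0.01, 0.00, 0.00 and 0.00. More members were below Ctrl than above it in all 4 comparisons: 43 were higher and 66 lower at Ext_0h, 39 and 70 at Ext_4h, 48 and 61 at ATP_0h, and 42 and 67 at ATP_4h, where 52.9%, 50.1%, 50.6% and 50.6% of all genes were higher. These 4 comparisons share the same 3 Ctrl libraries, so their directions are not independent of each other.

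Counting members whose 3 libraries all lay beyond the 3 Ctrl libraries gave 2 higher and 4 lower at Ext_0h (3.98% and 3.7% of all genes). At Ext_4h, 5 were higher and 14 lower (4.59% and 12.8% of members, against 6.05% and 5.68% of all genes). The 14 lower members were cxcl12.L, cxcr4.S, socs1.L, socs3.S, socs3l.L, socs3l.S, tnfrsf9.L, traf6.L, nfkb2.L, nfkbie.S, tnfaip8.S, irak1.L, stat3.2.L and irf2bpl.L, which are named here after their values were seen. At ATP_0h, 4 were higher and 5 lower (5.4% and 3.81% of all genes), and at ATP_4h 3 were higher and 8 lower (3.8% and 4.47%). The smallest adjusted p of the 14 was 0.644.

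**Figure D2:**
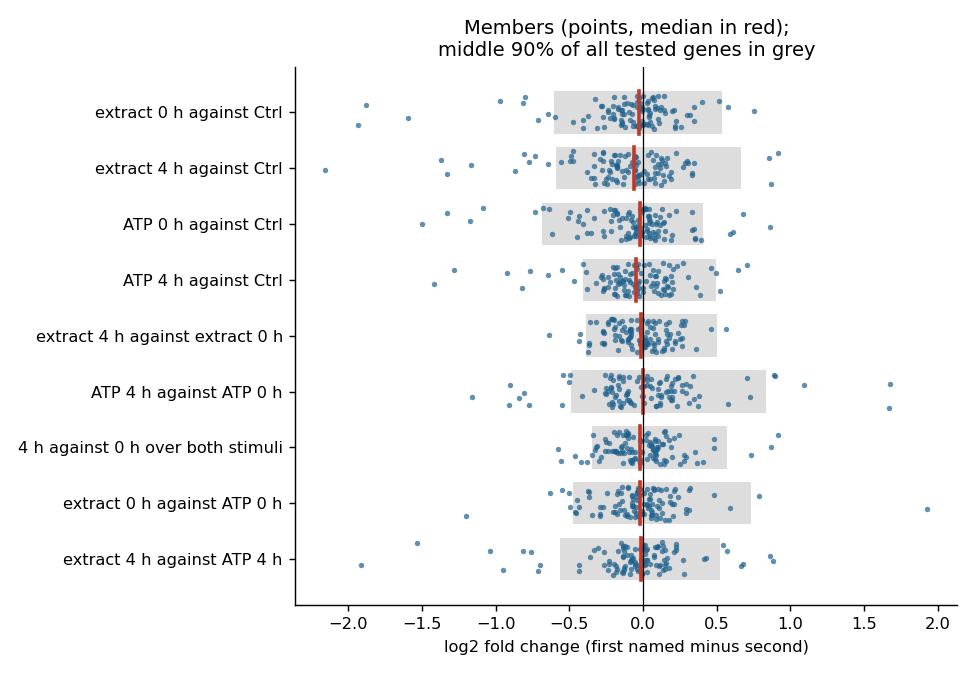
Log2 fold changes of the tested members in 9 comparisons. Each point is 1 of 109 members, the horizontal axis is the log2 fold change of the group named first against the other, the red line is the members' median, and the grey band holds the middle 90% of all genes tested. The medians lie close to 0 in every comparison, most points lie within the band, and the point furthest to the left is cxcl12.L at -2.16 for extract at 4 h against Ctrl.

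Among the receptors, tlr5.L, whose protein senses bacterial flagellin, had the highest level of the tlr rows. It was at 5.50, 5.68 and 4.49 CPM in Ctrl, 3.81, 3.40 and 5.61 in Ext_0h, 3.99, 2.95 and 5.63 in Ext_4h, 3.66, 3.70 and 2.80 in ATP_0h, and 6.73, 5.47 and 4.71 in ATP_4h. ATP_0h lay below Ctrl and below ATP_4h without overlap, and the extract groups spanned both. The log2 fold change was -0.62 (SE 0.25, adjusted p 0.984) for ATP_0h against Ctrl and 0.73 (SE 0.25, adjusted p 0.519) for ATP_4h against ATP_0h. The interaction of stimulus and time was -0.75 (SE 0.35, adjusted p 1.00), so a difference in time course between the stimuli did not pass the test.

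In the TNF receptor family no row was called. The family's tested rows spread between replicates at a median of 1.17 times the trend for their abundance (0.64 to 1.43), and tnfrsf9.L, a receptor of activated T cells in mammals, ran from 2.03 to 7.53 CPM. The row with the highest level, tnfrsf21.L, a death-domain receptor, was at 20.5, 21.3 and 26.8 CPM in Ctrl and between 17.7 and 28.5 in the stimulated libraries, and its partner tnfrsf21.S was between 7.52 and 14.4 in all libraries. tnfrsf1a.L, a receptor for TNF itself, was at 6.15, 7.92 and 7.13 CPM in Ctrl, 9.47, 9.79 and 7.69 in Ext_0h and 5.98, 7.85 and 7.14 in Ext_4h. Its Ext_4h libraries overlapped both others, and the log2 difference between 4 h and 0 h after extract was -0.36 (SE 0.20, adjusted p 1.00). tnfrsf14.L, a receptor for the ligand LIGHT in mammals, was at 4.92, 6.68 and 5.43 CPM in Ext_0h and 3.61, 4.36 and 4.28 in ATP_0h. These groups did not overlap, and the difference of 0.48 (SE 0.20) had an adjusted p of 0.742.

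The 2 chemokine receptors that were tested sat close to the filter. ccr9.L was at 0.458, 0.447 and 0.801 CPM in Ctrl, 0.738, 0.239 and 1.99 in Ext_0h, 1.44, 1.14 and 0.589 in Ext_4h, 0.269, 0.221 and 0.233 in ATP_0h, and 1.45, 0.364 and 0.551 in ATP_4h. ATP_0h was lowest, and a single library set the height of Ext_0h and of ATP_4h. The log2 difference was 1.93 for Ext_0h against ATP_0h (SE 0.73, adjusted p 0.742) and 0.99 without Ext_0h replicate 3. For ATP_4h against ATP_0h it was 1.67 (SE 0.73, adjusted p 0.551) and 0.91 without ATP_4h replicate 1. cxcr4.S, a copy of the gene for the receptor of the chemokine Cxcl12, was between 0.138 and 0.761 CPM in all libraries, and cxcr4.L was not above 0.26.

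Among the adaptors downstream of the Toll-like and TNF receptors, no row was called. myd88.L was at 22.0, 24.2 and 23.8 CPM in Ctrl and between 17.4 and 28.5 in the stimulated libraries, and its partner myd88.S was at 9.43 or more in all. traf4.L, from the traf row with the highest level, was between 21.5 and 32.5 CPM, with both extremes in Ctrl, and traf4.S was between 11.3 and 20.6. traf3.L, whose protein restrains noncanonical NF-kB signalling and takes part in interferon induction, was at 13.1, 11.8 and 17.1 CPM in Ctrl, 11.5, 9.90 and 15.1 in Ext_0h, 13.5, 13.7 and 15.5 in Ext_4h, 10.5, 9.85 and 9.10 in ATP_0h, and 13.1, 11.9 and 11.7 in ATP_4h.

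The ATP_0h libraries of traf3.L lay below Ctrl and below ATP_4h without overlap. The log2 difference from Ctrl was -0.50 (SE 0.16, adjusted p 0.984), with an approximate 95% interval from -0.84 to -0.16. Its partner traf3.S, at 0.469 to 1.31 CPM in ATP_0h and 0.549 to 1.28 in Ctrl, differed by 0.04 (SE 0.46, adjusted p 0.996). traf5.L, another adaptor of TNF receptors, was lower at 4 h than at 0 h by -0.46 on the log2 scale over both stimuli (SE 0.18, adjusted p 0.469), with 1.74 to 2.03 CPM in Ext_4h and 1.46 to 1.78 in ATP_4h against 1.99 to 2.74 and 1.95 to 2.76 at 0 h.

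Among the NF-kB genes, rela.L encodes the main activating subunit. It was at 27.4, 26.9 and 28.8 CPM in Ctrl, 26.5, 26.7 and 26.2 in Ext_0h, 27.9, 24.4 and 27.8 in Ext_4h, 24.9, 23.9 and 28.0 in ATP_0h, and 21.6, 24.3 and 22.6 in ATP_4h. All 3 ATP_4h libraries were below all 3 Ctrl libraries, a log2 difference of -0.28 (SE 0.098, adjusted p 1.00), and rela.S was below the filter. rel.L, the highest of the nfkb and rel rows, was between 20.6 and 30.3 CPM in all libraries. rel.S was at 12.7, 11.2 and 11.1 CPM in Ext_0h and 10.7, 8.99 and 8.48 in ATP_0h, which did not overlap, and the difference was 0.31 (SE 0.16, adjusted p 0.742). Of the 14 tested nfkb and rel rows, 11 were lower than Ctrl at Ext_0h, 10 at Ext_4h, 12 at ATP_0h and 9 at ATP_4h, with medians of -0.10, -0.11, -0.16 and -0.06. Of all genes, 52.9%, 50.1%, 50.6% and 50.6% were higher than Ctrl in the same order. None of these rows was called. At ATP_0h the counts of rows by direction differed between families: 13 irf rows were higher than Ctrl and 5 lower, and 6 stat rows were higher and 3 lower. The irf rows include irf2bp2 and irf2bpl, and their median was 0.07. For tnfaip the counts were 2 and 6 there, and for traf 4 and 7. For socs they were 7 and 9, for tnfrsf 5 and 8, and for cxcl 4 and 3. For myd88 and irak they were 4 and 2, for tlr 0 and 3, for il1b 1 and 1, and for ccr and cxcr 0 and 1 each. Copies of 1 gene enter these counts as separate rows, and no row was called. In the other comparisons with Ctrl the irf and stat counts lay closer together or went the other way. At Ext_0h, Ext_4h and ATP_4h, 8, 7 and 9 irf rows were higher and 10, 11 and 9 lower. For stat, 5, 4 and 3 were higher and 4, 5 and 6 lower.

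The gene tnfaip1.L, which encodes an adaptor of a ubiquitin ligase and is induced by TNF in human endothelium, had the highest level of the tnfaip rows. It was at 46.7, 41.8 and 45.0 CPM in Ctrl, 45.0, 44.7 and 40.3 in Ext_0h, 36.3, 37.2 and 44.2 in Ext_4h, 46.1, 45.8 and 45.3 in ATP_0h, and 37.9, 39.4 and 40.4 in ATP_4h. After ATP the 4 h libraries were all below the 0 h libraries, and after extract they overlapped. The difference over both stimuli was -0.18 (SE 0.070, adjusted p 0.465).

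Relative to the trend at their abundance, the widest spread between replicates was seen in inflammatory cytokine and chemokine genes. The biological coefficient of variation of a gene (BCV, the spread between replicates beyond counting error) was divided by the trend at its abundance. Without that division the order differs: the BCV of ccr9.L was 0.49, above the cxcl median of 0.38. The members' median ratio was 0.85 and that of all genes 0.83, and 30 of the 109 members lay above the trend. In 10 the ratio was over 1.5: cxcl8.L (3.06), cxcl12.L (2.64), il1b.S (2.46), il1b.L (2.25), cxcl14.L (1.99), cxcl8.S (1.86), tnfaip6.L (1.80), cxcl2.L (1.74), tnfaip6.S (1.59) and tnfaip3.S (1.57). These 10 were picked by that ratio. All 18 irf rows and all 9 stat rows were below the trend, with ratios of 0.57 to 0.98 and 0.64 to 0.95.

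**Figure D3:**
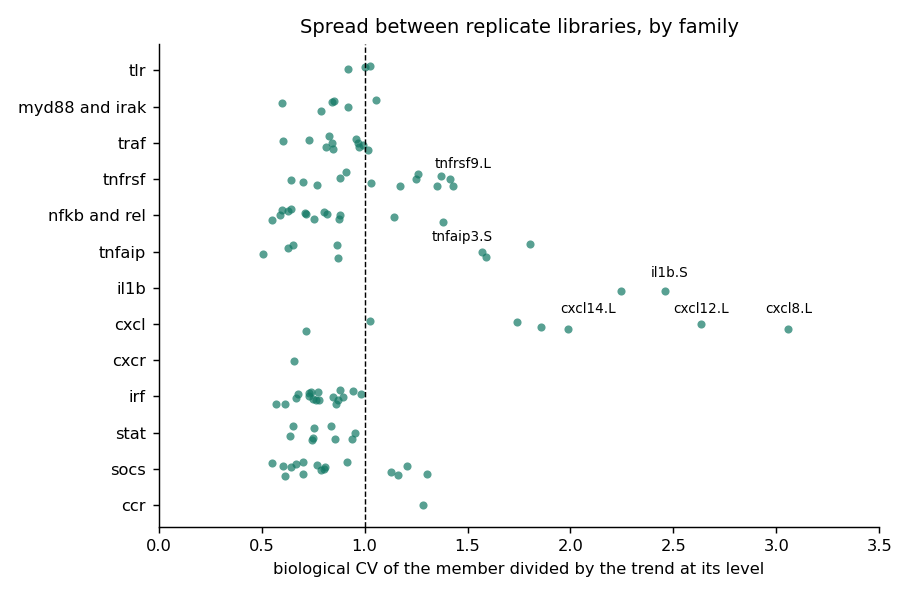
Spread between replicates by family. Each point is 1 tested member, with the families set out along the vertical axis. The horizontal axis is the member's biological coefficient of variation divided by the trend at its abundance, and 1 marks a gene at the trend. The il1b genes and most of the cxcl genes lie above 1, and the irf and stat genes lie below it.

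The cytokine il1b, interleukin-1 beta, is a classic product of NF-kB in alarmed tissue. il1b.S was at 6.22, 5.28 and 6.97 CPM in Ctrl, 3.94, 1.31 and 5.43 in Ext_0h, 1.93, 2.69 and 7.92 in Ext_4h, 6.89, 3.48 and 1.17 in ATP_0h, and 1.51, 3.64 and 1.65 in ATP_4h. Ctrl was tight and high, the other groups were wide, and only ATP_4h lay wholly below Ctrl. There the log2 difference was -1.42 (SE 0.66, adjusted p 1.00). The partner il1b.L was lower than il1b.S in every library, and its difference at ATP_4h was -0.82 (SE 0.89, adjusted p 1.00).

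A similar split between libraries was seen for cxcl8.L, a copy of the gene for the neutrophil attractant interleukin-8. It was at 10.5, 11.6 and 7.21 CPM in Ctrl, 7.99, 1.91 and 9.31 in Ext_0h, 3.71, 4.34 and 14.7 in Ext_4h, 12.0, 11.3 and 5.76 in ATP_0h, and 3.07, 9.68 and 2.63 in ATP_4h. Low and high libraries occurred in each stimulated group, and every one of these groups overlapped Ctrl. cxcl2.L, a related chemokine gene, was at 6.46, 7.67 and 2.02 CPM in ATP_0h and 1.39, 4.53 and 1.29 in ATP_4h, which overlapped. Its log2 difference over time after ATP was -1.16 (SE 0.46, adjusted p 0.548), -2.03 without ATP_4h replicate 2 and -0.83 without ATP_0h replicate 2. The interaction of stimulus and time for cxcl2.L was 1.18 (SE 0.65, adjusted p 1.00), and the partner cxcl2.S was between 0.464 and 1.83 CPM in all libraries.

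Several of these genes were low in the same libraries. From the 10 picked by the BCV ratio, 6 linked to NF-kB were set side by side after their values were seen, leaving out cxcl12.L, cxcl14.L and both tnfaip6 rows. Of the 6 genes il1b.L, il1b.S, cxcl8.L, cxcl8.S, cxcl2.L and tnfaip3.S, all 6 were below their own median over the 15 libraries in Ext_0h replicate 2, ATP_0h replicate 3 and ATP_4h replicate 3. In Ext_4h replicates 1 and 2 and ATP_4h replicate 1, 5 of the 6 were below it. All 6 were above it in Ext_0h replicate 3, Ext_4h replicate 3 and ATP_0h replicate 1. The il1b and cxcl8 rows are .L and .S copies of the same genes, so the 6 rows are not 6 separate genes. cxcl14.L did not follow them, with its highest values, 187 and 202 CPM, in ATP_0h replicate 3 and ATP_4h replicate 3. tnfaip6.L (median 1.28 CPM) was at 1.09, 0.524 and 0.808 in the libraries where all 6 were above their median, in the order named. Where all 6 were below, it was at 0.716, 0.700 and 2.08 CPM. tnfaip3 encodes A20, an inhibitor that NF-kB induces, and tnfaip3.S ran from 8.00 to 19.0 CPM. The inhibitor gene nfkbia.L is named here beside them after its values were seen. It was at 15.5, 19.3 and 20.3 CPM in the libraries where all 6 were below their median, in the order named. Where all 6 were above, it was at 30.2, 26.5 and 33.0 CPM. Its highest value, 35.0, was in Ctrl replicate 3, where 3 of the 6 were below their median.

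Ribosomal RNA took 21.9% of the counts in Ext_0h replicate 2, 20.1% and 28.2% in Ext_4h replicates 1 and 2, and 21.0% and 25.5% in ATP_4h replicates 1 and 3. In ATP_0h replicate 3, where all 6 genes were also low, it took 43.3%, the highest share. Where all 6 were above their median, it took 34.9% (Ext_0h replicate 3), 39.2% (Ext_4h replicate 3) and 28.2% (ATP_0h replicate 1). The part of library quality in this split was not tested.

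**Figure D4:**
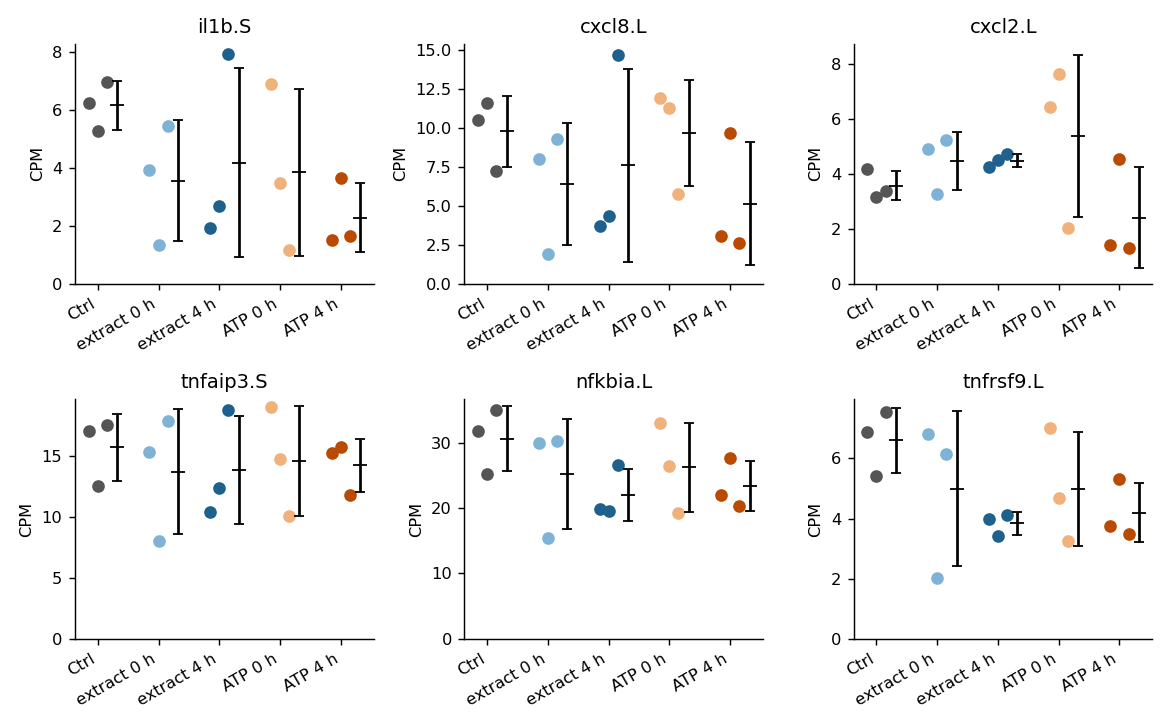
Levels of il1b.S, cxcl8.L, cxcl2.L, tnfaip3.S, nfkbia.L and tnfrsf9.L. Points are the CPM of single libraries in replicate order within each group, and bars give the mean and SD (n = 3). In il1b.S the Ctrl libraries lie close together, and the extract and ATP groups at 0 h and the extract group at 4 h spread from 1.17 to 7.92 CPM.

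The chemokine gene with the highest level was cxcl14.L, which is expressed in skin epithelium in mammals. It was at 105, 65.2 and 146 CPM in Ctrl, 119, 92.3 and 150 in Ext_0h, 103, 101 and 182 in Ext_4h, 130, 80.6 and 187 in ATP_0h, and 158, 93.8 and 202 in ATP_4h. In all 5 groups replicate 2 was lowest and replicate 3 highest, and every group overlapped Ctrl. The mean was 105 ± 40.2 CPM (SD, n = 3) in Ctrl and 151 ± 54.3 in ATP_4h, and each ATP_4h library was above the Ctrl library of the same number. The log2 difference was 0.52 (SE 0.38, adjusted p 1.00) and did not pass the test. With the replicate number as a block it was 0.53 (SE 0.13, adjusted p 0.750), also not called. In the authors' deposited table, tested with limma, it was 0.64 (adjusted p 0.000596), where 2.03% of all genes were called. That table was adjusted on these same libraries before deposit, so its p-values are too small by an unknown amount.

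At Ext_4h the member furthest from Ctrl was cxcl12.L. Cxcl12 is a chemokine made by mesenchymal and other stromal cells, and it guides migrating cells in the embryo. cxcl12.L was at 10.5, 21.6 and 4.73 CPM in Ctrl, 4.49, 3.40 and 2.08 in Ext_0h, 2.89, 3.88 and 1.51 in Ext_4h, 2.69, 9.32 and 2.65 in ATP_0h, and 9.16, 14.6 and 7.78 in ATP_4h. Both extract groups lay below Ctrl and below ATP_4h, ATP_0h overlapped Ctrl, and Ctrl itself was spread widely.

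The log2 difference of cxcl12.L from Ctrl was -1.88 at Ext_0h (SE 0.61, adjusted p 0.906) and -2.16 at Ext_4h (SE 0.61, adjusted p 0.644). Without Ctrl replicate 2 these were -1.19 and -1.46. After ATP, cxcl12.L differed from Ctrl by -1.33 at 0 h (SE 0.58) and -0.24 at 4 h (SE 0.55). Ext_4h differed from ATP_4h by -1.92 (SE 0.61, adjusted p 0.986). In the test of any difference among the 5 groups its adjusted p was 0.669, and it was called with the replicate number as a block (adjusted p 0.0249) and by DESeq2 (adjusted p 0.0158). The shares of all genes called in those fits are not given here. The partner cxcl12.S, at 0.224 to 0.785 CPM in all libraries, differed from Ctrl by 0.04 at Ext_0h (SE 0.50, adjusted p 1.00) and -0.05 at Ext_4h (SE 0.51, adjusted p 0.984).

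Muscle markers also differed between libraries. The summed level of the muscle list (11 rows, 8 above the filter, among them actc1, ckm, myl1, mylpf and tnnc2) was 62.2, 142 and 16.7 CPM in Ctrl, 6.03, 16.8 and 15.8 in Ext_0h, 23.1, 22.8 and 7.01 in Ext_4h, 7.38, 58.4 and 15.7 in ATP_0h, and 90.3, 173 and 77.9 in ATP_4h. Within Ctrl and within ATP_4h the order of the 3 libraries by this sum was the order by cxcl12.L. Within Ext_0h, Ext_4h and ATP_0h it was not. The list for endothelium and early mesoderm (9 rows, 4 above the filter, 2 at 0) summed to 3.69 to 18.1 CPM in Ctrl, 3.52 to 4.07 in Ext_0h, 2.10 to 6.10 in Ext_4h, 2.33 to 7.67 in ATP_0h and 5.82 to 32.8 in ATP_4h. The part of such cells in the cxcl12.L values was not tested.

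The gene tnfaip6.L, which encodes a hyaluronan-binding protein of inflamed and remodelling matrix, followed a like course. It was at 2.29, 5.06 and 1.28 CPM in Ctrl, 0.553, 0.716 and 1.09 in Ext_0h, 1.24, 1.60 and 0.524 in Ext_4h, 0.808, 3.70 and 0.700 in ATP_0h, and 2.84, 4.95 and 2.08 in ATP_4h. Ext_0h lay below Ctrl without overlap, and Ext_4h lay below ATP_4h. The log2 differences were -1.94 (SE 0.69, adjusted p 0.935) and -1.53 (SE 0.64, adjusted p 1.00), and the first was -1.24 without Ctrl replicate 2. tnfaip6.S differed from Ctrl by -1.59 at Ext_0h (SE 0.69, adjusted p 1.00), and its libraries overlapped. The library with the highest muscle sum was also that with the highest tnfaip6.L in Ctrl, ATP_0h and ATP_4h. In Ext_0h and Ext_4h it was not. The same was true of cxcl12.L in all of these groups.

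**Figure D5:**
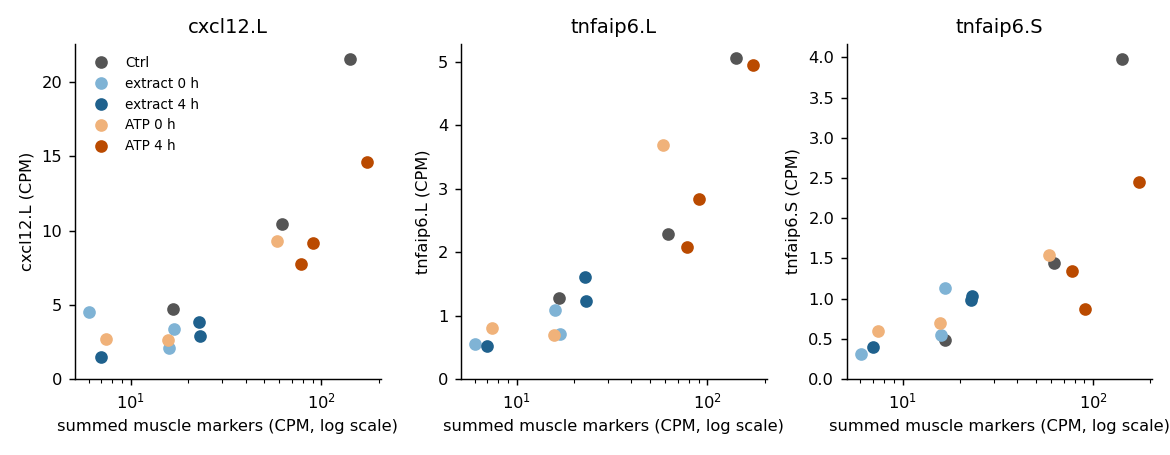
Levels of cxcl12.L, tnfaip6.L and tnfaip6.S beside the muscle markers. Each point is 1 library coloured by group, the horizontal axis is the summed CPM of the muscle markers on a log scale, and the vertical axis is the CPM of the gene. The library with the highest cxcl12.L, Ctrl replicate 2 at 21.6 CPM, had a muscle sum of 142 CPM, and the extract libraries, with sums of 6.03 to 23.1 CPM, had 1.51 to 4.49 CPM of cxcl12.L.

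Of the interferon regulators, irf7.L, the master regulator of type I interferon genes in mammals, was among the 3 members with the smallest unadjusted p-values in 3 of the 4 comparisons with Ctrl. It was at 41.0, 46.2 and 53.7 CPM in Ctrl, 52.9, 60.8 and 59.8 in Ext_0h, 58.0, 54.2 and 61.6 in Ext_4h, 48.6, 51.2 and 61.4 in ATP_0h, and 57.9, 63.9 and 58.8 in ATP_4h. Ext_4h and ATP_4h lay above all Ctrl libraries, Ext_0h overlapped Ctrl by its lowest library, and ATP_0h overlapped it broadly. The log2 differences were 0.30 at Ext_0h (SE 0.12, adjusted p 0.992), 0.30 at Ext_4h (SE 0.12, adjusted p 0.661), 0.19 at ATP_0h (SE 0.12) and 0.36 at ATP_4h (SE 0.12, adjusted p 1.00). The approximate 95% interval at ATP_4h ran from 0.10 to 0.62. All 4 differences rest on the same Ctrl libraries.

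irf1.L, whose protein acts in interferon responses and whose transcription NF-kB induces in mammals, was at 35.0, 51.4 and 50.1 CPM in Ctrl, 47.2, 54.4 and 57.1 in Ext_0h, 41.0, 44.4 and 51.9 in Ext_4h, 48.1, 68.5 and 62.9 in ATP_0h, and 41.8, 53.6 and 55.1 in ATP_4h. ATP_0h had the highest mean, 59.8 ± 10.5 CPM (SD, n = 3) against 45.5 ± 9.11 in Ctrl, and the groups overlapped. The log2 difference was 0.39 (SE 0.17, adjusted p 0.984). irf1.S, at 1.40 to 1.65 CPM in ATP_0h and 0.721 to 1.30 in Ctrl, did not overlap, and its difference of 0.59 (SE 0.35) had an adjusted p of 0.984. Highest of the rows that begin with irf was irf2bp2.L, a corepressor that binds IRF2, at 82.1, 70.0 and 77.9 CPM in Ctrl and 62.8 to 94.8 in the stimulated libraries, with irf2bp2.S between 21.4 and 39.9 in all.

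The STAT genes were among the least variable members. stat3.1.L was at 104, 86.5 and 86.4 CPM in Ctrl and between 74.9 and 109 in the stimulated libraries. A second row of the same gene name, stat3.2.L, was at 44.0, 46.9 and 47.4 CPM in Ctrl, 50.3, 50.1 and 48.0 in Ext_0h, 40.4, 42.8 and 42.7 in Ext_4h, 53.5, 46.1 and 44.6 in ATP_0h, and 37.9, 45.6 and 42.8 in ATP_4h. After extract, the 4 h libraries were all below the 0 h and the Ctrl libraries. The difference over time was -0.24 after extract (SE 0.10, adjusted p 1.00) and -0.21 over both stimuli (SE 0.071, adjusted p 0.416), the smallest p-value of any member in that test.

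SOCS genes, the feedback inhibitors of JAK and STAT signalling, were lower than Ctrl in 10 of 16 rows at Ext_0h and 11 at Ext_4h. At ATP_0h 9 were lower and at ATP_4h 11, and none was called. The medians were -0.01, -0.06, -0.09 and -0.05 on the log2 scale. Of all genes, 52.9%, 50.1%, 50.6% and 50.6% were higher in the same order. socs3.S was at 8.77, 6.89 and 8.33 CPM in Ctrl, 8.06, 4.56 and 4.52 in Ext_0h, 3.99, 4.24 and 6.15 in Ext_4h, 9.80, 9.71 and 4.59 in ATP_0h, and 4.35, 7.18 and 5.69 in ATP_4h. Ext_4h lay below Ctrl without overlap, with a log2 difference of -0.74 (SE 0.30, adjusted p 0.661), and its partner socs3.L differed by -0.50 (SE 0.35, adjusted p 0.714). socs1.L was at 1.24, 1.12 and 0.962 CPM in Ctrl, 0.889, 0.537 and 0.814 in Ext_0h, 0.619, 0.723 and 0.458 in Ext_4h, 1.29, 0.717 and 0.389 in ATP_0h, and 0.406, 0.589 and 0.368 in ATP_4h. Ext_0h, Ext_4h and ATP_4h lay below Ctrl without overlap, and ATP_0h did not. The difference at ATP_4h was -1.29 (SE 0.43, adjusted p 1.00), and socs1.S overlapped between all groups. The highest socs row, socs5.S, was between 22.5 and 32.6 CPM throughout, and socs5.L between 16.8 and 26.4.

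The homeolog copies of these genes were used unequally. The members form 52 pairs of .L and .S rows, and 33 members have no partner row. Of the 41 pairs with both copies tested, the .L copy held more than 50% of the pair's CPM in every library in 25, the .S copy in 6, and the larger copy changed between libraries in 10. The .L share averaged 97.7% for irf1 (96.8% to 98.6% over libraries), 97.7% for stat2, 93.3% for traf3, and 88.5% for cxcl12. For il1b and socs3 the .S copy was the larger, with .L shares of 24.3% (6.25% to 38.8%) and 33.6%. RSEM divides reads that fit both copies, so a share can be uncertain where the copies are alike in sequence.

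Genes of the same pathways that the name rule does not take were also described, from a list of 79 symbols. The list holds kinases (IKK, TBK1, RIPK, JAK), cytosolic nucleic acid sensors, cytokine receptors, caspases, ubiquitin enzymes and a few secreted products, and 63 symbols were found, as 103 rows of which 87 were tested. None of the 87 was called in any comparison by edgeR. At an unadjusted p under 0.05 there were 3 of the 87 at Ext_0h, 7 at Ext_4h, 2 at ATP_0h and 3 at ATP_4h against Ctrl. The shares of all genes there were 4.53%, 7.27%, 3.58% and 3.29%. Between 4 h and 0 h over both stimuli there were 11 (12.6%, against 9.75% of all genes). tirap.L, an adaptor that brings MyD88 to Toll-like receptors, had a mean of 13.9 ± 2.46 CPM (SD, n = 3) in Ctrl and 19.6 ± 1.24 in Ext_4h. Its libraries did not overlap there, and the log2 difference of 0.50 (SE 0.13) had an adjusted p of 0.644. tgfb1.S, a copy of the gene for the anti-inflammatory cytokine TGF-beta 1, had a mean of 4.22 ± 2.69 CPM in Ctrl and 1.83 ± 0.35 in Ext_0h. The log2 difference was -1.25 (SE 0.41, adjusted p 0.906), with overlapping libraries. It was not limited to extract: the difference from Ctrl was -1.06 at ATP_0h (SE 0.40, adjusted p 0.984) and -0.83 at Ext_4h (SE 0.40, adjusted p 0.673). From ATP_0h to ATP_4h it was 1.01 (SE 0.40, adjusted p 0.548).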

How the data were processed

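The authors' deposited files are expected counts per gene, named for RSEM in the column headers, and a log2 CPM table adjusted for surrogate variables per its name. The submitters' processing notes name fastp, STAR, RSEM and limma without versions. The genome build and annotation are not given in the sources used here, so no coordinates or sequences are given. Libraries were stranded total RNA with ribosomal RNA depletion, read as single-end 75 nt, per the labels' protocols. Expected counts need not be whole (69.1% were), because RSEM divides reads that fit several genes. The tables held 0 columns of other samples.

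Groups and replicate numbers come from the sample titles. Expected counts were rounded, filtered with filterByExpr (24052 genes left), scaled by TMM and tested in edgeR 4.0.16 (R 4.3.3) by the robust quasi-likelihood test with 1 coefficient per group over all 15 libraries. Tests are two-sided, and Benjamini-Hochberg adjustment ran over the whole table, with calls at an adjusted p-value under 0.05. Each standard error was derived from the log2 fold change and F, and intervals are approximate. Fold changes use a prior count of 0.125. CPM levels come from unrounded counts on TMM-scaled library sizes. The fit was tested on simulated data. The common BCV was 0.189.

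The members and gene lists were chosen with earlier results of these data known. Named members are those called in any comparison, the 3 smallest unadjusted p-values of each comparison, the highest member of each family, and their .L or .S partners. The results of 1 gene that the rule names are not reported here. From the pathway list come called genes and the 2 lowest p-values for any difference among the groups. Names were looked up in a RefSeq table of Xenopus_laevis_v10.1, where 40077 symbols matched.

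Replicate numbers recur in each group. Deviations from group means of same-numbered libraries correlated above 0.1 in all 3 pairs for 5 of 10 pairs of groups (0.158 to 0.494): Ctrl with Ext_0h, ATP_0h and ATP_4h, and ATP_0h with Ext_0h and ATP_4h. In these the samples count as paired, and by the column headers each replicate number is a consecutive block of libraries. The main fit did not use this pairing, so its standard errors, intervals and spreads include differences between replicate numbers. Ext_4h replicates 1 and 2 were closest, with 11.1% of genes past the 5% chi-square level against 28.4% to 50.4% in the other pairs, and were kept as 2 samples. Alternatives were the replicate block, DESeq2 1.42.0, limma-voom (limma 3.58.1), RLE size factors, no filter, homeologs summed, the groups compared alone, Ext_4h replicates 1 and 2 summed, the authors' log2 table tested with limma, and each library left out.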

Additional observations from a re-analysis of the deposited data

How the results depend on the processing

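No member was called in any of the 11 comparisons with any 1 library left out (0 to 0 members), with limma-voom, RLE size factors, no filter on low counts, homeologs summed, Ext_4h replicates 1 and 2 summed or, in comparisons of groups, only those groups in the fit. With the replicate number as a block, 1 member (cxcl12.L) was called in the test of any difference among the 5 groups, and the block changed no other call. DESeq2 also called 1 there, cxcl12.L. The shares of all genes called with the block and by DESeq2 are not given here. The authors' deposited log2 table, tested with limma, held 113 members. Against Ctrl it called 3 at Ext_0h, 4 at Ext_4h, 4 at ATP_0h and 4 at ATP_4h. It called 6 for ATP_4h against ATP_0h and 8 for 4 h against 0 h over both stimuli. For Ext_4h against ATP_4h it called 4, and in the overall test 9. It called cxcl12.L (-1.20 at Ext_0h, -1.60 at Ext_4h), irf7.L (0.28 and 0.28) and tnfaip6.L (-1.23 and -1.02) at both extract times. These calls were not limited to extract: against Ctrl it also called cxcl12.L at ATP_0h (-1.13) and irf7.L at ATP_4h (0.36). Of the 28009 genes there, 752, 1788, 564, 568, 1824, 2523, 919 and 3849 were called in the same order. These are 2.68%, 6.38%, 2.01%, 2.03%, 6.51%, 9.01%, 3.28% and 13.7%. The members' share was above that of all genes at ATP_0h and ATP_4h against Ctrl and for Ext_4h against ATP_4h. In the other tests named it was below. The adjustment had been made before deposit on these same libraries, and the p-values do not count the degrees of freedom it used, so they are too small by an unknown amount. The log2 fold changes of the 3 members with the smallest p-values in each comparison kept their sign under all alternatives run. Members near 0 did not all keep it: with RLE in place of TMM scaling, 69 instead of 66 were lower at Ext_0h against Ctrl, 62 instead of 61 at ATP_0h against Ctrl, 53 instead of 55 for ATP_4h against ATP_0h, 60 instead of 59 for Ext_0h against ATP_0h and 63 instead of 61 for Ext_4h against ATP_4h. The members' median for ATP_4h against ATP_0h went from -0.0024 to 0.0024, and that of the tnfrsf rows at Ext_0h from 0.0026 to -0.0058.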
